A study of Mus musculus with 10 samples.

Results

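The extracellular matrix of the liver was examined through 40 genes: 14 collagens, 13 other structural proteins (glycoproteins and proteoglycans), 12 matrix proteases, protease inhibitors and crosslinking enzymes, and 1 receptor, *Pdgfra*. They were chosen by name as matrix genes, and each was followed through every probe that the array annotation assigns to it. A probe was named for 37 of the 40, which gave 70 probes among the 45281 on the array. No probe is named here for *Col6a3*, *Fbn1* and *Loxl2*.

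The arrays measured total RNA from the livers of 10 mice of a stable cross of 129S1/SvImJ and C57Bl/6J (B6/129), all sampled after 8 weeks of diet. In the WD SW group, 5 mice ate a Western diet rich in fat and drank water sweetened with fructose and glucose. In the CD group, 5 mice ate chow and, per the study's methods, drank normal water. The methods give male mice of 8 to 12 weeks of age at the start, and describe the cross as isogenic. The mice of both groups carried no transgene or deletion that the labels name. The diet and the drink are the only treatment that the labels give as different, and their parts cannot be told apart. The sample titles also hold a number, 5 or 7 in WD SW and 12, 13 or 14 in CD. No number occurs in both groups, so whatever it stands for cannot be told apart from the diet. Replicate numbers only name the arrays and pair none of them.

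The matrix of a healthy liver is a thin, discontinuous layer in the space between the sinusoidal endothelium and the hepatocytes, with fibrillar collagen around portal tracts and central veins. Stellate cells, portal fibroblasts, endothelial cells and, for plasma fibronectin, hepatocytes all make parts of it. Metalloproteinases cut matrix proteins, TIMPs block those enzymes, and lysyl oxidases crosslink collagen, so that a matrix transcript tells of production and not of how much protein was laid down. In whole liver, fewer cells of a type and less RNA per cell cannot be told apart.

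Signals were background corrected, made equal in distribution between arrays and taken on the log2 scale, so that 1 unit is a 2-fold difference, and levels of different probes are not compared. Of the 37 genes with a probe, 29 were tested, being above background on at least 5 of the 10 arrays, and 20 of these were above background on all 10. The background level was alike on all arrays (78.0 to 88.1), but the 95th percentile of the signal was not: it was 870 to 1023 in WD SW, 921 for CD replicate 1 and 403 to 548 for the remaining 4 CD arrays. The share of probes above background was 41.2% to 45.8% for the bright arrays (WD SW and CD replicate 1) and 33.7% to 36.5% for the dim ones. For the liver label, 12 hepatocyte markers were read, of which 11 were tested. Their summed level was 16.96 to 17.13 on the WD SW arrays and 16.69 to 16.90 on the CD arrays. Such a sum follows its brightest genes. The median log2 fold change of the 11 was -0.03, with 1 gene higher and 5 lower in the test given below. No other tissue was measured, so the sum does not test the label.

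Within the chosen set, the matrix genes called different between the diets were all higher in WD SW. Matrix genes outside the set, given further below, were called in both directions. Of the 29 tested genes, 10 rose, 0 fell and 19 did not pass the test (limma, Benjamini-Hochberg adjusted over 10187 genes, threshold 0.05). Over all genes tested, 14.3% were called higher and 15.2% lower. Some arrays of 1 diet share a number in their titles, whose meaning is not given. With that number as a random block (correlation 0.224), 7 rose, and *Col1a1* (adjusted p = 0.0955), *Col3a1* (0.0854) and *Adamts1* (0.068) did not pass. The 10 were the glycoproteins *Fn1*, *Sparc*, *Ccn2* and *Nid1*, the collagens *Col1a1*, *Col3a1* and *Col14a1*, the proteases *Mmp13* and *Adamts1*, and the inhibitor *Timp2*. The 5 WD SW values lay wholly above the 5 CD values for 6 of the 29 genes and wholly below for 0, where 9.36% and 10.3% of all genes did so. The median log2 fold change was 0.34 over the 29, against -0.05 over all genes. With median scaling in place of equal distributions, 11 members rose and 2, *Col6a2* (-0.58 ± 0.17) and *Mmp9* (-0.46 ± 0.17), fell, and the medians were 0.14 over the members and -0.22 over all genes. Genes that pass the filter through 1 diet alone must differ to be tested, so these counts describe the tested genes only. The changes were also few and mostly small: *Fn1*, *Mmp13*, *Ccn2* and *Sparc* rose by more than 1 unit, and the other 6 by 0.55 to 0.87.

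**Figure D1:**
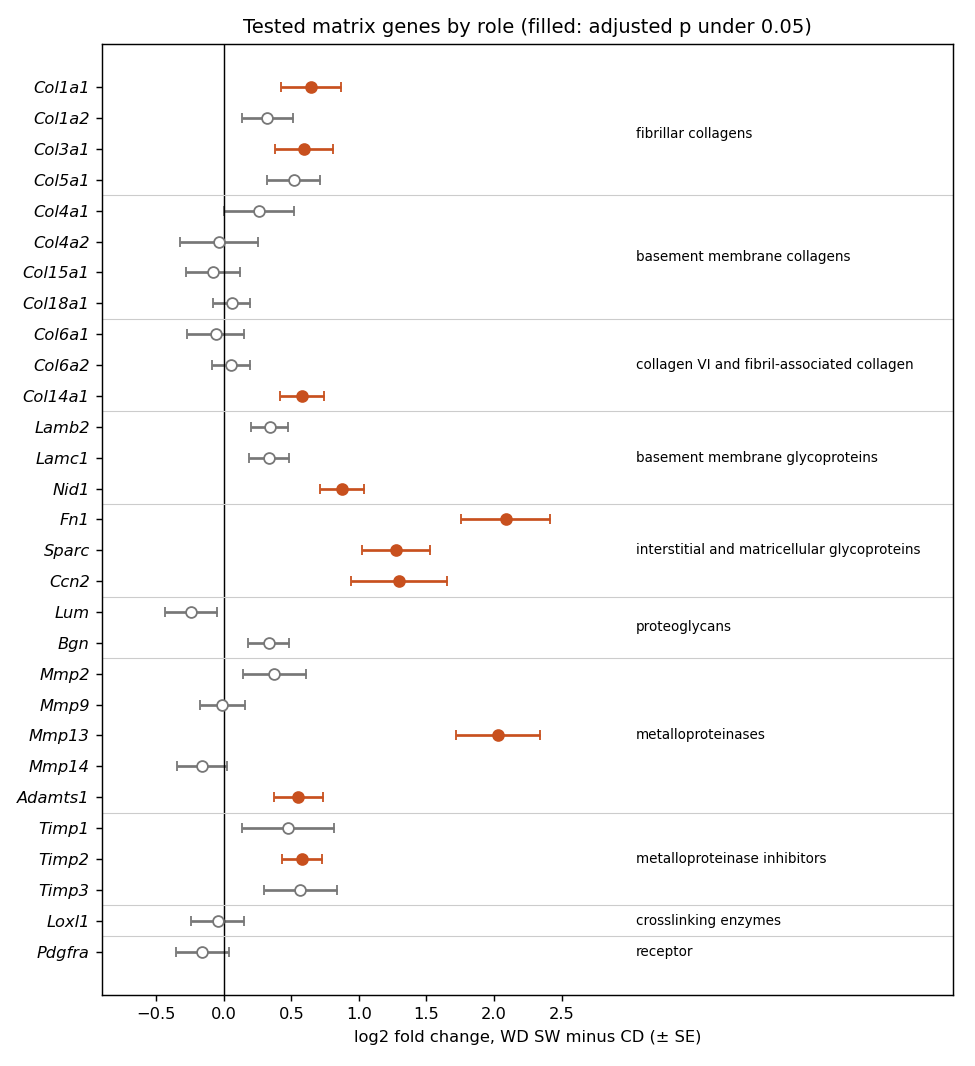
Log2 fold change (WD SW minus CD, horizontal axis) with its standard error for the 29 tested matrix genes, grouped by role, with filled points for genes that passed the test over 10187 genes. *Fn1* (2.09) and *Mmp13* (2.03) lie farthest to the right, and no filled point lies left of 0.

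Promoter sequences are shown for the called genes with the largest increases that the promoter table covers, *Mmp13*, *Sparc* and *Nid1*, to show how far genes that rose together share promoter letters. The table (RefSeq, GRCm38.p6) held a promoter for 25 members, 6 of them among the 10 called. Each window runs from 250 bases before the gene's start to 50 after it, 300 bases in all, and is written 5′ to 3′ on the gene's strand. Capitals mark matches to 4 short motifs, searched on both strands. The AP-1 motif was searched as TGANTCA, where N is any base. The motif of the TATA box, which positions the polymerase at many regulated genes, was searched as TATAAA. The RUNX motif, bound by the runt family of transcription factors, was searched as AACCACA. The GC box, common in promoters rich in CpG, was searched as GGGCGG. The *Mmp13* window is chr9:7272264-7272563 (+ strand), the *Sparc* window chr11:55420031-55420330 (- strand) and the *Nid1* window chr13:13437352-13437651 (+ strand).
Mmp13: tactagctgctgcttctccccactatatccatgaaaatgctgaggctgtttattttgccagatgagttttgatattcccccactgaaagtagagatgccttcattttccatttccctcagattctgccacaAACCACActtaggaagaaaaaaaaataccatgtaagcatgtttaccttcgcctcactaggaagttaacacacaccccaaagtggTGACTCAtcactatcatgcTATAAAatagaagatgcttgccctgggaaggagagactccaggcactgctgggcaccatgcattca
Sparc: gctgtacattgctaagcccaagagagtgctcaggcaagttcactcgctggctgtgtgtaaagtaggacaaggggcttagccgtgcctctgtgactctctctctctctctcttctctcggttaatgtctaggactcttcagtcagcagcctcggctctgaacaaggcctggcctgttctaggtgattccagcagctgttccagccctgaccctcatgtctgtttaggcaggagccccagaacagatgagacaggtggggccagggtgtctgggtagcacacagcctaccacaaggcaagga
Nid1: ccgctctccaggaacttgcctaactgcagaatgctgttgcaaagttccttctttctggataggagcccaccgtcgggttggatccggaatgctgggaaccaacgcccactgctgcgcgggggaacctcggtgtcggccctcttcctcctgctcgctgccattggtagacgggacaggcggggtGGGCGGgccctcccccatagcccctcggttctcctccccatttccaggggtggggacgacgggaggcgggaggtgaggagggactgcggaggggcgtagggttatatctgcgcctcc
The *Mmp13* window held the AP-1, TATA and RUNX letters, 1 match each and without overlap. Of 32851 windows of this kind, 7.81% held the AP-1 letters, 13.6% the TATA letters and 5.27% the RUNX letters. The *Nid1* window held the GC box once, as 35.7% of windows did, and the *Sparc* window held none of these letters. A match is a description of the sequence, and binding was not measured.

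Among the interstitial and matricellular glycoproteins, all 3 that could be tested rose, and they held 3 of the 4 largest changes. *Fn1* encodes fibronectin, which hepatocytes secrete into plasma and which stellate cells and other cells deposit early in wound repair. On the WD SW arrays, replicates 1 to 5 in order, its log2 level was 9.85, 8.33, 9.61, 10.23 and 9.90, and on the CD arrays it was 7.12, 7.89, 7.70, 8.07 and 6.69. The groups did not overlap, although WD SW replicate 2 stood well below the other 4. *Fn1* thus rose by 2.09 ± 0.33, a 4.25-fold increase with a limma adjusted p of 0.00047. Here and for all other genes, the value is the difference of log2 means with its standard error from 5 arrays per diet. In the unnormalized signal the same probe read 482 to 1475 on the WD SW arrays and 119 to 220.1 on the CD arrays.

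Of the 4 *Fn1* probes, 2 were tested and both rose, the second by 0.90 ± 0.24, so the size of the change depended on the probe. The other 2 were not above background on any array. *Fn1* was also the member least affected by processing, as its call was kept in all 26 alternatives, with values from 1.496 to 2.85.

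*Ccn2*, listed under its older name *Ctgf*, encodes connective tissue growth factor, a matricellular protein that TGF-beta and YAP signaling induce. Its log2 level was 8.59, 8.10, 9.69, 7.91 and 7.16 on the WD SW arrays and 6.995, 6.75, 6.55, 7.14 and 7.52 on the CD arrays. WD SW replicate 5 fell within the CD range, and WD SW replicate 3 was higher than all others by more than 1 unit. The gene rose by 1.30 ± 0.35 (adjusted p = 0.0134), and its second probe rose by 1.70 ± 0.34. The spread within WD SW (SD 0.94) was larger than within CD (SD 0.37). Without CD replicates 3 and 4 the adjusted p was 0.0531.

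*Sparc* encodes osteonectin, a collagen-binding protein of remodeling tissue. It measured 7.11, 7.34, 8.15, 8.39 and 7.81 on the WD SW arrays against 6.93, 6.54, 5.79, 6.58 and 6.58 on the CD arrays. The groups did not overlap, but the lowest WD SW array and CD replicate 1 were close. The increase was 1.27 ± 0.25 (adjusted p = 0.00208). A second probe, above background on 2 CD arrays, rose by 0.86 ± 0.19, while the last stood at 0.32 ± 0.36 and did not pass. *Postn*, periostin, and *Thbs1*, thrombospondin 1, had 3 probes and 1 probe that were below background on most or all arrays, and were not tested.

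**Figure D2:**
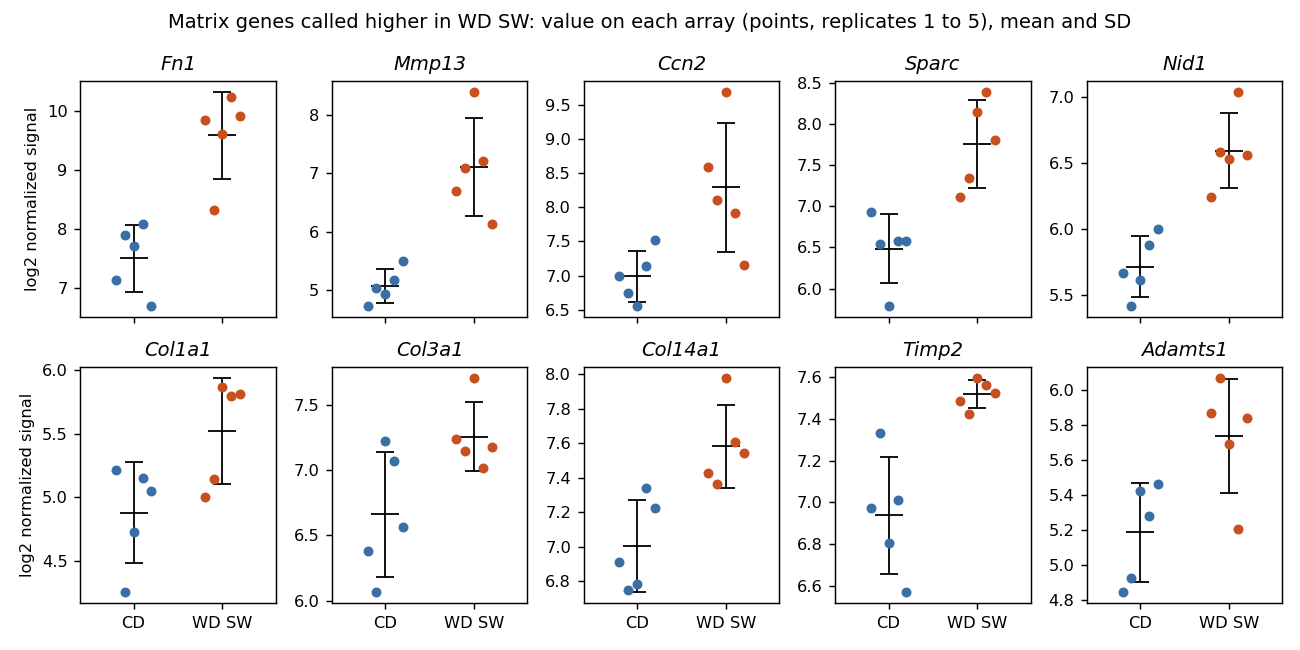
Log2 normalized signal (vertical axes, scaled per gene) on each of the 5 CD and 5 WD SW arrays for the 10 matrix genes called higher, with points for replicates 1 to 5 from left to right and bars for mean and SD. The diets separate completely for *Fn1*, *Mmp13*, *Sparc*, *Nid1*, *Col14a1* and *Timp2* and overlap for *Ccn2*, *Col1a1*, *Col3a1* and *Adamts1*.

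Among basement membrane glycoproteins, *Nid1* rose while the laminin chains did not pass. *Nid1* encodes nidogen 1, which ties the laminin and collagen IV networks together. It measured 6.25, 6.58, 6.53, 7.04 and 6.56 on the WD SW arrays and 5.67, 5.42, 5.62, 5.88 and 6.00 on the CD arrays. All 5 WD SW values exceeded all CD values, and the increase was 0.87 ± 0.16 (adjusted p = 0.00146). Its second probe was also above background on all 10 arrays and gave -0.13 ± 0.15, so this call rests on 1 of 2 probes.

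*Lamb2* and *Lamc1*, laminin chains of basement membranes, had log2 fold changes of 0.34 ± 0.14 and 0.34 ± 0.15 (adjusted p = 0.0814 and 0.10). *Lamb2* passed without CD replicate 1 (0.40). For *Lamc1*, the dimmer of its 2 probes, above background on 3 CD arrays, did pass in the fit over probes, at 0.80 ± 0.23. *Lama5* and *Lamb1* were not tested. The *Lamb1* probe was above background on 4 WD SW arrays and on 0 CD arrays, which missed the filter by 1 array.

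The proteoglycans bind collagen fibrils and set their spacing. *Bgn*, biglycan, lay between 9.78 and 10.49 on the WD SW arrays and between 9.67 and 9.98 on the CD arrays, with a log2 fold change of 0.33 ± 0.15 (adjusted p = 0.109). *Lum*, lumican, gave -0.24 ± 0.20 and 0.07 ± 0.17 with its 2 probes. Neither passed with all arrays, and *Bgn* passed without WD SW replicate 5 (0.44).

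Fibrillar collagens, the rope-like collagens that make up scar tissue, were modestly higher. All 4 tested had positive fold changes, except for *Col1a2* with median scaling (-0.093), and 2 were called, both near the threshold. *Col1a1*, the alpha-1 chain of collagen I, measured 4.998, 5.14, 5.87, 5.79 and 5.81 on the WD SW arrays and 5.21, 4.25, 4.73, 5.15 and 5.05 on the CD arrays. WD SW replicates 3 to 5 were above every CD array and replicates 1 and 2 were not. The increase was 0.64 ± 0.22 (adjusted p = 0.0407). This probe, the only one for the gene, was above background on all 5 WD SW arrays but on 1 CD array.

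*Col3a1*, the chain of collagen III, measured 7.23, 7.14, 7.70, 7.02 and 7.17 on the WD SW arrays and 6.38, 6.07, 7.22, 7.07 and 6.57 on the CD arrays after normalization. CD replicates 3 and 4 reached the WD SW range, and the other 3 CD arrays did not. That overlap depends on the normalization, as their unnormalized signals were 142.6 and 129.5, below every WD SW array (221.8 to 309.4). The increase was 0.60 ± 0.21 (adjusted p = 0.0481), and without CD replicates 3 and 4 it was 0.92 ± 0.18 (adjusted p = 0.00406). Those were the highest CD arrays for *Col3a1*, so leaving them out had to raise the fold, and that p-value is no separate test.

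*Col1a2*, the partner chain of collagen I, had a log2 fold change of 0.32 ± 0.19 (adjusted p = 0.214). *Col5a1*, which helps to nucleate collagen I fibrils, had 0.52 ± 0.20 (adjusted p = 0.0606), with WD SW values from 7.16 to 8.14 and CD values from 6.56 to 7.36. *Col5a2* had 5 probes, none above background on more than 1 array, and was not tested. Both calls in this group were fragile. That of *Col1a1* was lost in 15 of 24 alternatives, among them without WD SW replicate 3, 4 or 5 (0.56, 0.58 and 0.57) and without CD replicate 2 or 3 (0.49 and 0.61). That of *Col3a1* was lost in 15 of 26, among them without any 1 of the WD SW arrays (0.48 to 0.65) and without CD replicate 1, 2 or 5 (0.52, 0.45 and 0.57). In turn, *Col5a1* passed without WD SW replicate 5 (0.62) or CD replicate 5 (0.59).

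Basement membrane collagens showed no call. *Col4a1* and *Col4a2* encode the common chains of collagen IV, the sheet-forming collagen beneath endothelium. *Col4a1* measured 8.41, 8.28, 8.61, 8.67 and 8.17 on the WD SW arrays and 7.56, 7.60, 8.49, 9.14 and 8.04 on the CD arrays. The WD SW values were tight (SD 0.21), whereas the CD arrays spread widely (SD 0.66), CD replicate 4 being the highest of all 10. That rank depends on the normalization, as the unnormalized signal of CD replicate 4 was 340, below every WD SW array (403 to 560). The log2 fold change was 0.26 ± 0.26 (adjusted p = 0.469), and without CD replicates 3 and 4 it was 0.69 ± 0.17 (adjusted p = 0.013). Those were the highest CD arrays for *Col4a1*, so leaving them out had to raise the fold, and that p-value is no separate test. *Col4a2* also spread more widely in CD (SD 0.73) than in WD SW (SD 0.32), with CD replicate 4 the highest array (8.15). Its value was -0.04 ± 0.29, and 0.37 ± 0.25 without CD replicates 3 and 4 (adjusted p = 0.304), so it passed in neither case.

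*Col18a1*, the source of endostatin and a collagen that hepatocytes make in quantity, measured 12.79 to 13.04 on the WD SW arrays and 12.61 to 13.14 on the CD arrays (0.06 ± 0.14). *Col15a1*, a related collagen of vessel walls, had -0.08 ± 0.20. *Col4a3*, a chain found mainly in specialised basement membranes such as that of the kidney glomerulus, was above background on 1 array and was not tested.

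Among the remaining collagens, *Col14a1* was the one that rose. It encodes collagen XIV, which sits on the surface of collagen I fibrils. It measured 7.43, 7.37, 7.98, 7.61 and 7.54 on the WD SW arrays and 6.91, 6.75, 6.79, 7.34 and 7.22 on the CD arrays. The groups were apart by a narrow margin, WD SW replicate 2 lying just above CD replicate 4. The increase was 0.58 ± 0.16 (adjusted p = 0.0154), and both of its probes rose (0.58 and 0.56). *Col6a1* and *Col6a2*, chains of the beaded microfibrils of collagen VI, had -0.06 ± 0.21 and 0.05 ± 0.14. Another *Col6a1* probe, also above background on all 10 arrays, rose by 0.77 ± 0.19 in the fit over probes (adjusted p = 0.0081), so the gene's result depends on which probe stands for it.

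The probes themselves therefore deserve a count. Of the 41 tested member probes, 16 were called higher and 0 lower, where 17.3% and 14.1% of all 17368 tested probes were. Of the 11 genes with several tested probes, 5 had some but not all probes called, and 4 had probes of opposite sign. The 5 were *Col6a1*, *Lamc1*, *Nid1*, *Sparc* and *Mmp13*, and the probes of *Fn1*, *Ccn2* and *Col14a1* were all called.

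**Figure D3:**
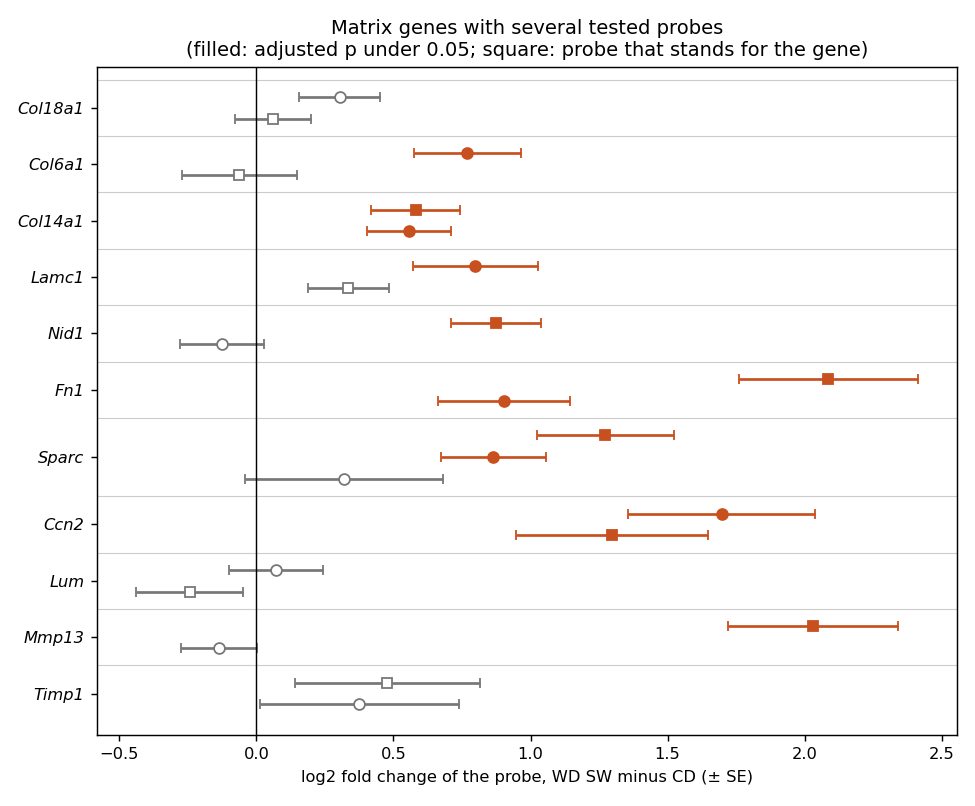
Log2 fold change with its standard error (horizontal axis, WD SW minus CD) of every tested probe of the 11 matrix genes with several tested probes, with squares for the probe that stands for the gene and filled marks for probes that passed. The probes of *Mmp13* lie at 2.03 and -0.14, whereas the 2 probes of *Col14a1* coincide.

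The metalloproteinases were led by a single gene. *Mmp13* encodes collagenase 3, the main interstitial collagenase of rodents, which in mouse liver is known from macrophages and stellate cells. It measured 6.69, 7.10, 8.39, 7.21 and 6.14 on the WD SW arrays and 4.73, 5.03, 4.93, 5.18 and 5.51 on the CD arrays. Every WD SW array was higher, WD SW replicate 3 most and replicate 5 least. The increase was 2.03 ± 0.31 (adjusted p = 0.000407). The probe was above background on 1 CD array, and its unnormalized signal there was 84.8 to 93.8 against 131 to 459 on the WD SW arrays, so the fold rests on CD values at the floor of the array.

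A second *Mmp13* probe, above background on all 10 arrays, measured 5.28 on average in WD SW and 5.42 in CD (-0.14 ± 0.14). The last was above background on 0 arrays. When detection on all 10 arrays was required, the second probe stood for the gene and its value became -0.14, the single alternative of 26 in which *Mmp13* lost its call.

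*Adamts1*, an enzyme that cleaves proteoglycans, measured 5.87, 6.07, 5.70, 5.203 and 5.84 on the WD SW arrays and 4.84, 4.93, 5.42, 5.28 and 5.46 on the CD arrays. WD SW replicate 4 fell within the CD range. The increase was 0.55 ± 0.18 (adjusted p = 0.0342), with 3 CD arrays above background, and the call was lost in 14 of 25 alternatives, among them without WD SW replicate 1, 2, 3 or 5 (0.52, 0.47, 0.56 and 0.52) and without CD replicate 1 or 2 (0.46 and 0.49).

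The gelatinases and the membrane-anchored collagenase did not pass. *Mmp2* (gelatinase A) stood at 0.37 ± 0.24, *Mmp9* (gelatinase B, known from leukocytes) at -0.01 ± 0.16 and *Mmp14*, which activates pro-MMP2 at the cell surface, at -0.16 ± 0.18. *Mmp14* was above background on all 10 arrays, between 8.28 and 9.21. *Mmp19* was not tested.

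The tissue inhibitors of metalloproteinases all had positive fold changes, and *Timp2* was called. *Timp2*, which also takes part in the activation of MMP2, measured 7.48, 7.42, 7.60, 7.56 and 7.52 on the WD SW arrays and 6.97, 7.33, 6.81, 7.01 and 6.57 on the CD arrays. The WD SW arrays were close to each other (SD 0.07, against 0.28 in CD), and the groups did not overlap. The increase was 0.58 ± 0.15 (adjusted p = 0.00907).

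*Timp1*, the inhibitor that is induced most in injured liver and is also an acute phase gene, measured 5.46, 6.01, 6.19, 5.95 and 5.49 on the WD SW arrays and 4.86, 4.74, 5.44, 6.89 and 4.78 on the CD arrays. All WD SW values exceeded 4 of the 5 CD values, and CD replicate 4 exceeded all 9 other arrays. That top rank depends on the normalization. In the unnormalized signal CD replicate 4, the dimmest array, read 122.4, below WD SW replicates 2 (139.5), 3 (146.2) and 4 (131.2). The log2 fold change was 0.48 ± 0.34 (adjusted p = 0.309), with 2 CD arrays above background. Without CD replicate 4 it was 0.86 (adjusted p = 0.00652), and without CD replicates 3 and 4 it was 1.03 ± 0.19 (adjusted p = 0.00246). Those were the highest CD arrays for *Timp1*, so leaving them out had to raise the fold, and these p-values are no separate test. On CD replicates 3 and 4 the summed level of 15 tested acute phase genes was 17.61 and 17.84, against 16.37 to 16.98 for the rest of CD and 16.32 to 16.82 in WD SW. Its part in the *Timp1* result was not tested. *Timp3*, an inhibitor bound to the matrix, had 0.57 ± 0.27 (adjusted p = 0.133), with CD values from 6.02 to 7.74, and passed without CD replicate 5 (0.75). Without CD replicate 3 it was 0.32 (adjusted p = 0.307), and without CD replicates 3 and 4 it was 0.21 ± 0.23 (adjusted p = 0.544).

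**Figure D4:**
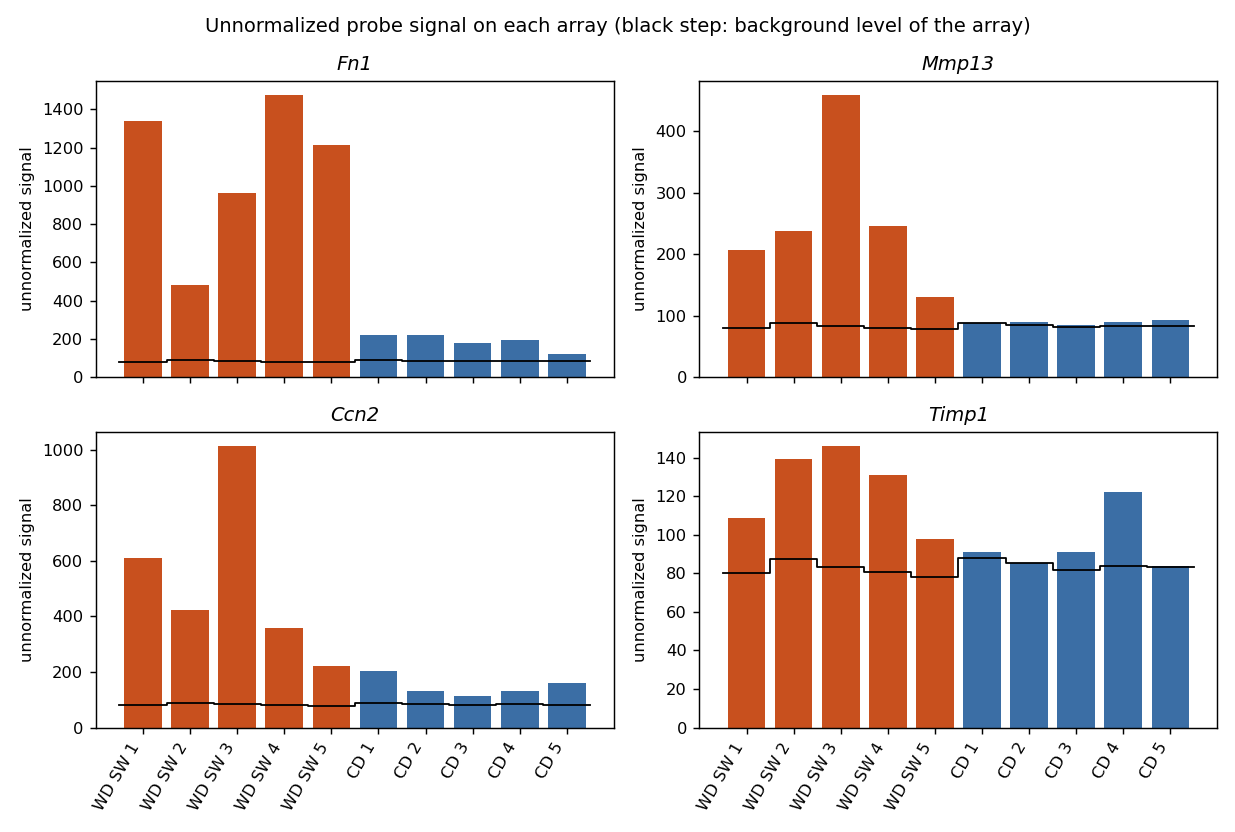
Unnormalized probe signal (vertical axes, linear, from 0) on each of the 5 WD SW and 5 CD arrays for *Fn1*, *Mmp13*, *Ccn2* and *Timp1*, with a black step at the background level of each array. The CD bars of *Mmp13* (84.8 to 93.8) sit at the background step. *Timp1* in CD replicate 4 (122) stands above the other CD bars and below WD SW replicates 2 (139.5), 3 (146.2) and 4 (131.2).

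Of the lysyl oxidases, which crosslink collagen and elastin, *Loxl1* had -0.05 ± 0.20 and *Lox* was not tested, with 2 WD SW arrays and 0 CD arrays above background. *Pdgfra*, a receptor for platelet-derived growth factor found on fibroblastic cells, measured 6.44 to 7.06 on the WD SW arrays and 6.47 to 7.56 on the CD arrays (-0.16 ± 0.20, adjusted p = 0.567).

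Set side by side, the counts of called genes by group are read beside the 14.3% of all genes called higher. Among collagens 3 of 11 tested rose (median log2 fold change 0.26), among glycoproteins and proteoglycans 4 of 8 (median 0.61), and among proteases, inhibitors and crosslinking enzymes 3 of 9 (median 0.48). Each share rests on few genes, and whether they differ from each other or from that over all genes was not tested. Single arrays also recurred: WD SW replicate 3 was the highest of all 10 arrays for 11 of the 29 tested genes and the highest WD SW array for 6 of the 10 called. Without it, 7 matrix genes were called, as without CD replicate 2. CD replicate 4 was the highest of all 10 arrays for 6 genes, and without it 11 were called. That rank holds after normalization only. CD replicate 4 had the lowest 95th percentile of signal (403), and unnormalized it was the highest array for none of these 6. Over all genes, 1263 were called higher without WD SW replicate 3, 1395 without CD replicate 2 and 1324 without CD replicate 4, beside 1455 with all arrays.

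Because 4 of the 5 CD arrays were dim, the comparison was also made with the brightness of each array as a covariate, and against CD replicate 1 alone, whose spread was then assumed to equal that of the WD SW arrays. Both fits lean on CD replicate 1, the only bright CD array, and are not independent of each other. Apart from that array, diet and brightness cannot be told apart. With the covariate, *Fn1* (2.505 ± 0.55, adjusted p = 0.0272), *Mmp13* (2.496 ± 0.51, adjusted p = 0.0226) and *Nid1* (1.07 ± 0.27, adjusted p = 0.0458) were called higher and none lower, beside 1.94% and 1.75% of all genes. Against CD replicate 1 alone, *Fn1* (2.46 ± 0.53, adjusted p = 0.0235), *Mmp13* (2.38 ± 0.59, adjusted p = 0.0378) and *Col4a1* (0.87 ± 0.23, adjusted p = 0.0458) were called higher and none lower, beside 4.29% and 3.66% of all genes.

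The other calls were lost in both fits, for *Nid1* against CD replicate 1 only (0.92 ± 0.26, adjusted p = 0.057). The standard errors of the 10 genes were larger in both fits than with all 10 arrays. The median over the 29 genes was 0.49 with the covariate and 0.31 against CD replicate 1, beside 0.34. Single folds moved in both directions. Against CD replicate 1, *Col1a1* had 0.31 ± 0.33 and *Sparc* 0.83 ± 0.40, both lower by more than 1.5 times, while *Adamts1* had 0.89. With the covariate, *Col3a1* had 1.07 and *Adamts1* 0.87. With the intensities as normalized by the authors, 7 genes were called higher and 0 lower (13.2% and 15.2% of all genes) and the median was 0.19. *Col1a1*, *Col3a1* and *Adamts1* were the 3 that did not pass there.

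**Figure D5:**
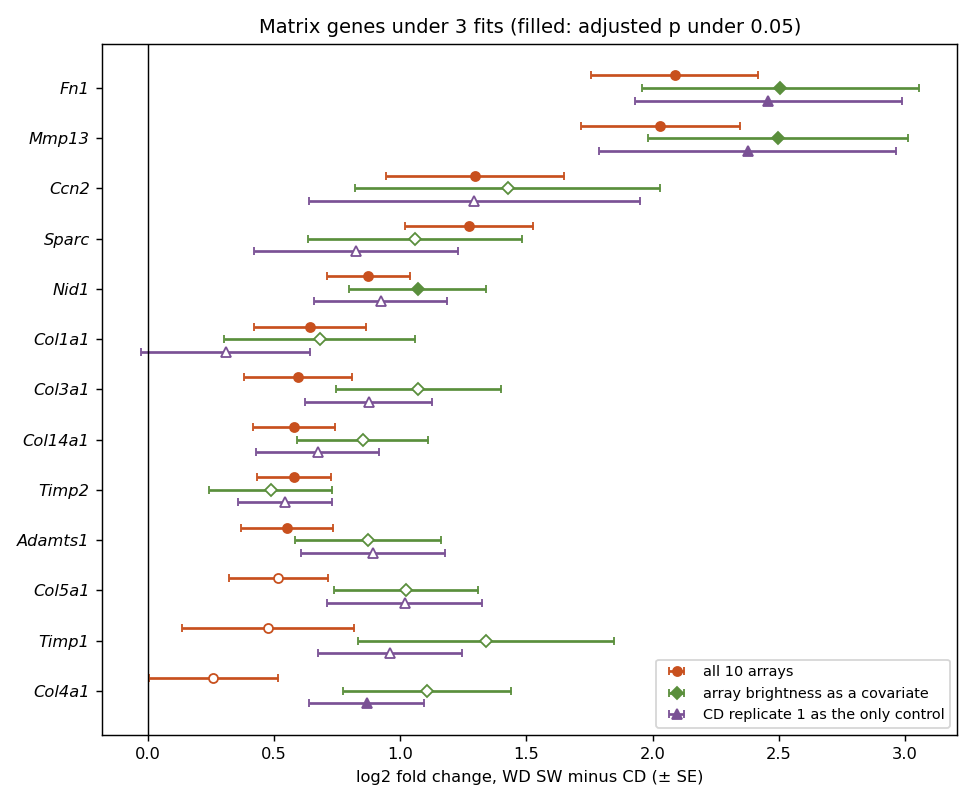
Log2 fold change with its standard error (horizontal axis, WD SW minus CD) of the 10 called matrix genes and of *Col5a1*, *Col4a1* and *Timp1*, with circles for all 10 arrays, diamonds for array brightness as a covariate and triangles for CD replicate 1 as the only control. *Fn1* and *Mmp13* are filled in all 3 fits, and *Col4a1* is filled only against CD replicate 1.

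Matrix genes outside the 40 are given list by list, and the shares called in these lists are to be read beside the 14.3% higher and 15.2% lower over all genes. Among 32 tested other matrix proteins, 6 rose and 4 fell (median 0.13), shares near those over all genes. *Ecm1*, a secreted glycoprotein that hepatocytes make, rose by 1.66 ± 0.28, and *Lamb3*, a laminin chain of epithelia, by 1.03 ± 0.20. *Ccn4*, of the same family as *Ccn2*, fell by 0.63 (SE 0.18), and *Tnc*, tenascin C, fell by 0.59 (SE 0.16).

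Among 15 tested genes of collagen processing and crosslinking, 1 rose and 5 fell (median -0.24). *P4hb*, a subunit of prolyl hydroxylase and a general protein disulfide isomerase, rose by 0.45 ± 0.14. *Loxl4*, a lysyl oxidase, and *Bmp1*, which trims procollagen, fell, with log2 fold changes of -1.34 ± 0.18 and -1.06 ± 0.15. *Loxl4* also fell in both fits made for array brightness (-1.56 and -1.46).

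Among 20 tested other proteases and inhibitors, 2 rose and 3 fell (median -0.04). *Mmp12*, the macrophage elastase and the neighbour of *Mmp13* on chromosome 9, measured 8.17, 9.10, 9.28, 8.87 and 6.71 on the WD SW arrays and 4.88 to 5.29 on the CD arrays. It rose by 3.35 ± 0.37 (adjusted p = 3.68e-05), with 1 CD array above background, and as for *Mmp13*, WD SW replicate 3 was highest and replicate 5 lowest of its group. *Ctss*, cathepsin S of macrophages and other antigen-presenting cells, rose by 0.94 ± 0.23. *Adam15*, a membrane-anchored metalloproteinase, fell by 1.57 (SE 0.19), and *Plat*, tissue plasminogen activator, by 0.46 (SE 0.15). Among 18 matrix receptors 3 rose and 3 fell (median 0.03), with *Sdc4*, syndecan 4, at 1.199 ± 0.27, *Itga9*, an integrin chain, at 0.49 ± 0.15, *Mrc2*, a collagen uptake receptor, at -0.75 ± 0.16 and the integrin chain *Itgav* at -0.48 ± 0.16. *Mrc2* was above background on 1 WD SW array and *Plat* on 2, so both decreases rest on WD SW values near the floor of the array.

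With array brightness as a covariate, *Mmp12*, *Ctss*, *Loxl4* and *Adam15* kept their calls and the other matrix genes named here from outside the set did not. The fold itself shrank by more than 1.5 times for *Ecm1* (to 0.80), *Lamb3* (to 0.65), *Sdc4* (to 0.55), *Mrc2* (to -0.29), *Tnc* (to -0.38), *P4hb* (to 0.30) and *Plat* (to -0.17), whereas *Bmp1* stood at -0.93, *Ccn4* at -0.58, *Itgav* at -0.40 and *Itga9* at 0.81. Against CD replicate 1, *Sdc4* had 0.36 and *Mrc2* -0.18. The calls of *P4hb*, *Plat*, *Itga9* and *Itgav* were also lost when certain single arrays were left out.

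Some members lie beside another matrix gene in the genome. *Col4a1* and *Col4a2* on chromosome 8 (0.26 and -0.04), *Col6a1* and *Col6a2* on chromosome 10 (-0.06 and 0.05) and *Dcn* and *Lum* on chromosome 10 (0.37 and -0.24) are listed next to each other in RefSeq, as are *Mmp12* and *Mmp13* (3.35 and 2.03). Of these, *Mmp13*, a member, and *Dcn* and *Mmp12*, which are outside the 40, were called, and the differences between neighbours were not tested.

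Markers of the cells that make or degrade matrix were counted on the same arrays, again beside 14.3% higher and 15.2% lower over all genes. Of 11 tested stellate cell markers, 2 rose and 0 fell: *Colec11* (1.11 ± 0.17), a collectin, and *Dcn*, decorin (0.37 ± 0.13, adjusted p = 0.046), a share near that over all genes. The call of *Dcn* was lost in 14 of 26 alternatives, among them without WD SW replicate 1, 2, 3 or 4 and without CD replicate 2, 3, 4 or 5, and with array brightness as a covariate neither gene was called. The summed level of the 11 was 12.88 to 13.23 on the WD SW arrays and 12.55 to 12.81 on the CD arrays, without overlap. This sum mostly follows *Dcn*, which alone averaged 12.46 in WD SW and 12.08 in CD, so it does not show that the 11 rose together. Their median log2 fold change was 0.18. *Acta2*, smooth muscle actin of activated stellate cells and vessel walls, was at -0.04 ± 0.32 and the intermediate filament gene *Des* at -0.41 ± 0.18, and neither passed. *Lrat*, the enzyme that stores retinol in quiescent stellate cells, was at 0.59 ± 0.21 (adjusted p = 0.0526). These 3 were picked from the list after their values were seen.

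Of 9 tested Kupffer cell and macrophage markers, 3 rose and 0 fell, among them the complement genes *C1qb* (1.69 ± 0.26) and *C1qc* (1.60 ± 0.33), and their summed level was 11.36 to 12.35 in WD SW and 10.61 to 11.67 in CD. Of 5 lipid-associated macrophage markers, 3 rose, among them *Mmp12* and *Gpnmb* (3.12 ± 0.33), and 1, *Fabp5*, fell (-1.97 ± 0.34, and -0.65 with the brightness covariate, not called). *Gpnmb* was above background on 2 CD arrays and *Mmp12* on 1, so both folds rest on CD values near the floor of the array. The summed levels of the 5 were 9.95 to 11.67 in WD SW and 8.67 to 9.95 in CD, and WD SW replicate 3 was the highest array in both macrophage lists. Of 12 endothelial markers 3 rose and 1 fell, with *Lyve1* at 1.32 ± 0.35, *Fcgr2b* at 1.15 ± 0.17 and *Kdr* at -0.50 ± 0.16, and summed levels of 12.31 to 12.70 in WD SW and 12.03 to 12.59 in CD. The summed levels of the macrophage and endothelial lists thus overlapped between the diets, while those of the 5 lipid-associated markers met at 9.95. With the brightness covariate *Kdr* (-0.12), *Fcgr2b* (0.91) and *C1qc* (1.87) were not called, whereas *C1qb*, *Lyve1*, *Gpnmb* and *Mmp12* kept their calls. The part of these cell types in the matrix results was not tested.

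Of 11 hepatocyte genes 1 rose (*Trf*, transferrin, 1.43 ± 0.23) and 5 fell, among them *Alb* (-1.93 ± 0.22) and *Tat* (-0.54 ± 0.13). The fall of *Alb* rests on 1 probe that averaged only 7.16 in WD SW and 9.09 in CD, where *Trf* averaged 14.55 and 13.12. Which transcript the *Alb* probe reads was not checked. Of 15 acute phase genes 1 rose (*Hp*, 0.95 ± 0.27) and 6 fell, among them *Mt2* (-2.42 ± 0.72) and *Apcs* (-1.43 ± 0.35), beside 15.2% lower over all genes. CD replicates 3 and 4 had the highest summed levels of this list. With array brightness as a covariate none of the 15 was called, the median turned from -0.79 to 1.04, and *Mt2* stood at 0.33 and *Apcs* at -0.37. Against CD replicate 1, *Apcs* stood at -0.61, not called. Of 4 neutrophil genes, *Ltf* was called lower, its mean being 4.83 in WD SW, where it was not above background on any array, and 5.64 in CD. Of 2 cholangiocyte genes *Sox9* fell (-2.09 ± 0.23), and of 3 mesothelial genes none passed, *Gpm6a* being the brightest (-0.06 ± 0.20).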

How the data were processed

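Liver RNA of 10 mice was profiled on Illumina mouse bead arrays, and each array was assigned to its diet by its label. The samples are labelled as separate, so p-values measure the spread between them, and no array duplicated another (highest correlation within a diet 0.989). The authors deposited unnormalized probe intensities on a linear scale, without background subtraction, which were the starting point, and a second table of normalized intensities, used as an alternative after log2 transformation. Their normalization method and the scanner software are not given in the sources used here.

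Signals were corrected with normexp (offset 16, with the background taken from the mode of each array because no control probes were used), quantile normalized and log2 transformed with limma 3.58.1 in R 4.3.3. Quantile normalization hides a shift shared by most genes, and signals near background are compressed. Probes above background (one-sided p under 0.05) on at least 5 arrays were tested. Of 45281 probes, 34885 had 1 symbol, 18 several and 10378 none; 34807 matched RefSeq by gene identifier. The brightest tested probe stood for a gene (10187 genes from 17368 probes), and a fit over all probes was made beside it. WD SW minus CD was tested with limma on all 10 arrays, adjusted over all features. Summed levels are log2 sums of linear values over the tested genes of a list. The limma fit alone was tested on simulated data with known changes and independent noise. Background correction, normalization, filter and probe choice were not tested in this way.

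The members, gene lists and tests were chosen with earlier results of these data known. Named by rule were all members and, per list, up to 2 genes called higher and 2 called lower with the largest change, or the brightest gene where none was called. *Acta2*, *Des* and *Lrat* were added after their values were seen. Alternatives covered background correction, normalization, the filter, the probe choice, array weights, a moderated variance with trend, a random block for the number in the titles, array brightness, control arrays and leaving out each array.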

Additional observations from a re-analysis of the deposited data

Results flagged for a closer look

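In 5 of the 124 groups of 5 arrays that were examined for named genes, 1 array stood far from the other 4 of its diet by Dixon's criterion; chance gives about 1 in 20 such groups. None of the 5 concerned a member of the matrix set. *Itga9* measured 7.53 in CD replicate 1, where the other CD arrays held 7.95 to 8.05. *Lyve1* measured 7.87 in WD SW replicate 3, where the others held 6.45 to 6.82. *C1qb* measured 5.89 in CD replicate 5, where the others held 6.75 to 6.99. *Alb* measured 7.64 in WD SW replicate 1, where the others held 6.99 to 7.15. *Mt2* measured 5.55 in WD SW replicate 2, where the others held 5.11 to 5.23.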

How the results depend on the processing

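The precision of all values is limited by the 5 arrays of each diet and, for members near background, by the signal itself. No paired analysis was possible because the numbers in the labels' titles are not shared between the diets, and the replicate numbers used here were given in order of listing and only name the arrays. Leaving out 1 array at a time gave 1177 to 1617 genes called higher and 1159 to 1743 lower, 7 to 11 members higher (7 without WD SW replicate 3 or CD replicate 2, 11 without CD replicate 4 or CD replicate 5) and 0 lower, 13 to 18 member probes higher and 0 lower, 7 to 13 other matrix genes higher (7 without WD SW replicate 1, beside 12) and 11 to 18 lower, and 12 to 17 markers higher and 11 to 15 lower. The medians were then 0.32 to 0.41 over members, 0.11 to 0.40 over collagens, 0.57 to 0.67 over glycoproteins and 0.34 to 0.55 over proteases. Array brightness as a covariate left 198 genes higher and 178 lower (beside 1455 and 1549), 3 members, 4 member probes, 3 other matrix genes higher and 2 lower (beside 12 and 15), and 8 markers higher and 2 lower (beside 13 and 15). CD replicate 1 as the only control left 437 genes higher and 373 lower, 3 members, 4 member probes, 6 other matrix genes higher and 3 lower, and 4 markers lower. Without CD replicates 3 and 4, 21 markers were higher. Median scaling over the tested probes moved the median of all genes to -0.22 and gave 3263 genes lower, with 27% of calls higher, 2 members lower (*Col6a2* and *Mmp9*), 4 member probes lower, and 7 other matrix genes higher and 31 lower. Median scaling over all probes, chosen after the data were seen, moved the median of all genes to 0.48 and gave 4872 genes higher and 146 lower, 24 members, 33 member probes, 39 other matrix genes higher and 3 lower, 35 markers higher, and medians of 0.84 over members, 0.75 over collagens and 1.30 over glycoproteins. The glycoprotein median was 0.33 with no filter and 0.87 with detection on all 10 arrays, where the protease median was -0.046 with fewer members and another *Mmp13* probe in place of the first. Detection on all 10 arrays left 38.8% of the calls over all genes higher, and probes averaged per gene 54.1%, beside 48.4%. Single genes that turned direction were not called with all arrays, with the exceptions of *Mmp13*, *Mt2* and *Itgav*. With median scaling they were *Col1a2* -0.093, *Col4a2* 0.047, *Col18a1* -0.28, *Col6a1* 0.042, *Col6a2* -0.58 and *Lamb2* -0.21; with median scaling over all probes *Col4a2* 0.75, *Col15a1* 0.38, *Col6a1* 0.74, *Lum* 0.55, *Mmp9* 0.24, *Mmp14* 0.63, *Loxl1* 0.67, *Pdgfra* 0.65, *Itgav* 0.14 and *Gpm6a* 0.24; with cyclic loess *Col4a2* 0.0026 and *Col6a1* 0.0010; with probes averaged *Col6a1* 0.35; with the brightness covariate *Col4a2* 0.16, *Col6a1* 0.21, *Lum* 0.29, *Mmp2* -0.059, *Mmp14* 0.14, *Pdgfra* 0.37 and *Mt2* 0.33; with CD replicate 1 alone *Lum* 0.15, *Mmp14* 0.057 and *Pdgfra* 0.17; without CD replicates 3 and 4 *Col4a2* 0.37, *Col15a1* 0.052, *Col18a1* -0.028, *Col6a1* 0.14, *Mmp9* 0.060, *Mmp14* 0.086, *Pdgfra* 0.043 and *Gpm6a* 0.0046; and with detection on all 10 arrays *Mmp13* -0.14. With 1 array left out, values on both sides of 0 were those of *Col4a2* -0.30 to 0.20, *Col15a1* -0.19 to 0.057, *Col6a1* -0.24 to 0.055, *Col6a2* -0.020 to 0.14, *Mmp9* -0.091 to 0.094, *Loxl1* -0.15 to 0.064, *Pdgfra* -0.27 to 0.0049 and *Gpm6a* -0.22 to 0.035. Over all named genes, 807 values under the alternatives other than leaving out 1 array kept direction and side of the threshold, 106 lost the call, 20 gained one and 38 turned direction; with 1 array left out these were 542, 51, 6 and 21. The cause of these differences was not tested except where stated.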
